A study of Mus musculus with 25 samples.

Results

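Round spermatids are the haploid germ cells that follow the second meiotic division and have not yet begun to compact their nuclei. They were picked here out of Drop-seq libraries of whole mouse testis by a rule on each barcode's own transcripts: at least 500 UMIs (unique molecular identifiers, 1 for each captured transcript), at least 3 UMIs over 10 markers (Tex36, Eqtn, Lyzl6, Hsfy2, 1700001P01Rik, Tex29, Fam154a, 4930527J03Rik, Pex5l and Lrrd1) that had to make up at least 0.3% of the UMIs, less than 1% over Prm1, Prm2, Tnp1 and Tnp2, and less than 0.2% over Ccna1, Plk1, Aurka, Ccnb1, Kif23, Spc25 and Rfx8. Of 48642 barcodes in the 25 libraries analysed, 36240 came from the WT, Cul4a and CNP libraries, 23381 of these had at least 500 UMIs, and 1622 met the rule. They comprised 1089 WT barcodes from 11 libraries, 396 Cul4a barcodes from 2 libraries and 137 CNP barcodes from 2 libraries.

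In a round spermatid the Golgi builds the acrosome, the vesicle that later releases the enzymes used to cross the coat of the egg, while the axoneme of the flagellum grows from the centriole. Transcription resumes strongly after meiosis under regulators such as CREM and RFX2, and many messages are stored in the chromatoid body until the compacting nucleus falls silent. In later spermatids transition proteins and protamines replace the histones. Their transcripts build up before transcription stops, so an excess of protamine transcripts marks a later spermatid.

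The study set wild-type testis against mutants with defects in sperm production and asked which transcriptional programs each defect touched. The WT mice were C57BL/6 per the labels and C57BL/6J per the study's methods. Of their libraries, 9 were dissociated mechanically at ages from 3 months and 1 day to 9 months and 14 days, and 2 enzymatically, at 3 months and 21 days and at 4 months and 2 days. The Cul4a mice were homozygous knockouts (Cul4a-/-) on a B6;129 background, aged 1 month and 18 days and 1 month and 21 days. The CNP mice carried an eGFP BAC TRAP transgene of the Cnp gene on the strain of the WT mice, and were 2 months and 14 days and 2 months and 16 days old. These are the ages in the labels; the study's own list of samples gives the mutants' ages the other way round, and also the barcode numbers of CNP replicates 1 and 2, and these doubts were not settled here. Mlh3-/- testis (B6;129 per the labels and B6.129-Mlh3tm1Lpkn/J per the study's methods, aged from 2 months and 21 days to 8 months and 30 days) served to check the markers only. Both mutant groups were dissociated mechanically, so their reference was the mechanical WT set, which WT stands for in all values and ranges unless an enzymatic library is named. Genotype, age and depth differed together between the groups, as did strain background in Cul4a, and cannot be told apart; the WT libraries came from separate animals per the study, while for the mutants the labels do not say so, and the p-values measure the spread between libraries.

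Depth differed widely between the groups. Library totals ran from 1288257 to 3829176 UMIs in mechanical WT, were 9691555 and 9745302 in Cul4a, and 775386 and 1054964 in CNP. Over the round spermatids alone the sums were 2520684, 2495847 and 207409 UMIs, and the median per round spermatid ran from 976 UMIs in CNP replicate 2 to 4603 in Cul4a replicate 2. WT replicate 3, sequenced on a MiSeq per the study's list of samples, stood apart from the other WT libraries in its ribosomal protein transcripts. Of the 1622 barcodes, 1 occurred in a pair of libraries, and 106 had a partner in their own library that matched after a shift of 1 base. No doublet caller was run, and 19 round spermatids held more than 20000 UMIs, up to 80718.

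The markers of the rule were compared between classes of barcodes. The shares below were taken after each barcode was thinned to 500 UMIs, and depths in brackets are medians before thinning. In mechanical WT libraries, 45.7% of the 1063 round spermatids held a Tex36 UMI (median depth 1792 UMIs). The share was 11.3% of 11887 barcodes with 1% or more protamine and transition protein UMIs (668). It was 6.32% of 1012 barcodes with 0.2% or more division gene UMIs (1636.5), and 0 of 5420 barcodes of Mlh3 testis (1083). The 0 allows a share of up to 0.0554% of thinned barcodes, a limit that covers counting error only. Lyzl6, which encodes a lysozyme-like acrosomal protein, followed the same order with 39.4%, 13.8% and 5.34%, and Eqtn, which encodes the acrosomal membrane protein equatorin, with 23.5%, 7.45% and 2.47%. The other 7 markers kept this order, with 5.46% to 30.0% in round spermatids and 2.29% to 9.30% in protamine-positive barcodes, and Pex5l was the least distinct, at 248 CPM against 232 CPM, a ratio of 1.07. In Mlh3 testis, Eqtn and Lrrd1 were each seen in 2 thinned barcodes. These genes chose the barcodes, so the order of their shares in WT was set by the rule. Their shares and levels are a description and no check of the label. In the sorted libraries the rule was met by 29.2% of barcodes sorted as secondary spermatocytes and 7.00% of those sorted as spermatids. The name round spermatids was not tested against the sort. Tex36 stood at 1146 ± 209 CPM (counts of a gene per 1000000 UMIs of the round spermatids of a library, SD, n = 9 libraries) in WT round spermatids, from 738 to 1400.

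The promoter of Tex36, the marker seen in the largest share of WT round spermatids, is shown with 2 motifs in capitals: TGACG (or CGTCA on the other strand), the core of the cAMP response element that CREM binds, and GTTGCC (or GGCAAC), the core of the site that RFX factors bind. The 300 bases, 250 before to 50 after the start, lie on the minus strand at chr7:133602066-133602365 (RefSeq, GRCm38.p6):
Tex36: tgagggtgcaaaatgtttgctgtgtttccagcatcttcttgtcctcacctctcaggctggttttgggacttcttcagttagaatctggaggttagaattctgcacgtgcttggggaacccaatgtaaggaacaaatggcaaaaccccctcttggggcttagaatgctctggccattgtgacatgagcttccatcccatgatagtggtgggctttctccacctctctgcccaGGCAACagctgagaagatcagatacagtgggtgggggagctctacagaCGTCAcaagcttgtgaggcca
It held 1 match to each core. RefSeq promoters were matched for 5 of the 10 marker genes, and Tex36 was the only 1 of these that held either core. The cAMP core occurred in 20.8% and the RFX core in 12.5% of all 32851 promoters of this length. No marker promoter held the full element TGACGTCA, which occurred in 1.79% of all promoters.

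The limits of the rule had many barcodes on either side. The median round spermatid had 11 marker UMIs at 0.524% of its transcripts, 126 had exactly 3 marker UMIs, and 359 had a marker share under 0.4%, while 340 barcodes outside the set had a share from 0.2% to 0.3%. The lowest share inside was 0.3% and the highest outside 0.299%. On the protamine side, 521 round spermatids lay between 0.5% and 1%, and 287 barcodes outside lay between 1% and 1.5%; the highest inside was 0.998% and the lowest outside 1.00%.

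Markers of other cells were also summed over the round spermatids of each library. Over the 11 pachytene markers the level was 5139 to 6559 CPM in WT, against 6498 to 8866 CPM in the other barcodes, and over 9 leptotene and zygotene markers 413 to 554 CPM against 588 to 958 CPM. The 5 red blood cell markers had a median of 0 CPM in WT and reached 618 CPM in 1 library. Summed over 11 Sertoli markers, the level was 102 to 234 CPM in WT, 254 to 278 CPM in Cul4a and 181 to 186 CPM in CNP libraries. The 6 Leydig markers summed to 18.0 to 110 CPM in WT, 52.4 to 75.1 in Cul4a and 9.05 to 41.3 in CNP, and 11 macrophage markers to 11.5 to 73.8, 37.0 to 39.9 and 9.05 to 41.3 CPM. Of the macrophage markers, 3 were at 0 in all mechanical WT, 2 in both Cul4a and 5 in both CNP libraries. Cd68 was at 0 throughout. Fcgr3 gave 14 of 892279 and 22 of 1603568 UMIs in Cul4a, and 4 of 221717 in WT replicate 10. Its share of UMIs in Cul4a thus lay within the WT range. Among the Sertoli genes Sox9 gave 1 UMI in 1 WT library, and Wt1 none in WT, 1 and 3 in Cul4a and 1 in CNP replicate 1.

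The most abundant transcripts of WT round spermatids came from genes of several roles. Ldhc, the testis form of lactate dehydrogenase, led with 7491 ± 277 CPM (SD, n = 9), followed by Pabpc1, a poly(A) binding protein, with 5020 ± 441, and Meig1, which is needed to build the manchette and the flagellum, with 4100 ± 823. Smcp, a protein of the mitochondrial capsule of the sperm midpiece, reached 3990 ± 420 CPM. It stood at 708 CPM in division-gene barcodes and 8445 CPM in protamine-positive barcodes. Lyar, a nucleolar protein, ran the other way, at 5848, 2538 and 1989 CPM from division-gene barcodes through round spermatids to protamine-positive barcodes. Tulp2, a tubby-like protein of the testis, was highest in the round spermatids, at 2104 CPM against 312 and 1305 CPM.

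Another group of genes peaked in the round spermatids. Dscc1, a subunit of an alternative clamp loader that acts in sister chromatid cohesion, stood at 235 ± 45.0 CPM (SD, n = 9) against 41.3 CPM in protamine-positive and 6.69 CPM in division-gene barcodes, a ratio of 5.69 to the higher of them. Clec4a2, a C-type lectin gene better known from immune cells, had a ratio of 5.85 at 126 ± 25.1 CPM. Plin2, which coats lipid droplets, had a ratio of 5.30 at 188 CPM, and Dsg1a, a desmosomal cadherin, also 5.30. Spam1, the hyaluronidase with which sperm pass the cumulus, stood at 330 ± 54.0 CPM against 69.7 and 43.0 CPM. Of the 15 genes of largest ratio, the most abundant was 1700067P10Rik at 721 CPM with a ratio of 4.71. Both classes were cut on the same barcodes that gave these levels, so the ratios carry no test.

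**Figure D1:**
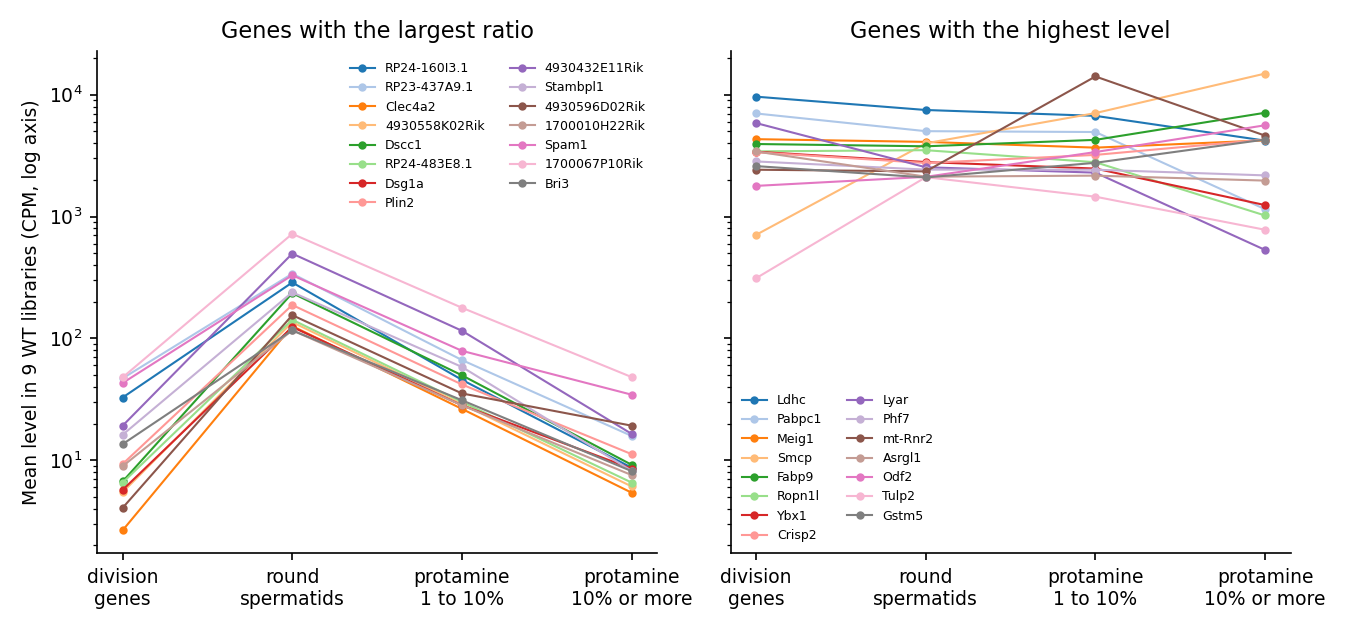
Mean level (CPM, log axis) over 9 mechanical WT libraries in 4 classes of barcodes, for the 15 genes with the largest ratio of round spermatids to the other classes (left) and the 15 with the highest level in round spermatids (right); each line is a gene. Every line on the left peaks in the round spermatids, while on the right Smcp stands at 708 CPM in division-gene barcodes and 3990 CPM in round spermatids and Lyar at 5848 and 2538 CPM.

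The protamine share, which the rule capped at 1%, was also used to look within the set, as a description. The 1063 mechanical WT barcodes were split at a protamine share of 0.5%, into 740 below and 323 at or above it. The summed level of 15 late spermatid genes was 13145 CPM below and 16586 CPM above the split, a ratio of 1.26, and was higher above in 9 of 9 libraries. Smcp (ratio 1.27) and Hils1, a spermatid linker histone (1.19), were also higher above in 9 of 9 libraries, and Gapdhs, the sperm form of glyceraldehyde phosphate dehydrogenase (1.25), in 8 of 9, whereas Odf1, of the outer dense fibres, had a ratio of 1.01 and was higher in 3 of 9. Lyar was lower above the split in 9 of 9 libraries with a ratio of 0.810, and the summed pachytene markers in 8 of 9 with a ratio of 0.863. Lyar is itself a pachytene marker and gave 2706 of their 6525 CPM below the split. Smcp, Hils1, Gapdhs and Odf1 are likewise among the 15 late spermatid genes, so these results overlap. The 25 acrosome genes had a ratio of 0.973. In Cul4a, 165 of 396 round spermatids lay at or above the split, and in CNP 26 of 137.

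The sex chromosomes, silenced during meiosis, supplied more of the transcripts in round spermatids than in the rest of each mechanical WT library. X-linked UMIs made up 1.51% to 1.70% of the X-linked and autosomal UMIs in the round spermatids of the 9 mechanical WT libraries and 0.989% to 1.21% in their other barcodes, so that the ranges did not overlap. Y-linked UMIs made up 0.0264% to 0.0514% in round spermatids and 0.0122% to 0.0192% elsewhere, again without overlap. The enzymatic libraries did not share this pattern for X: X-linked shares were 1.29% in round spermatids and 1.30% elsewhere in WT replicate 1, with 6 round spermatids, and 1.75% and 1.76% in WT replicate 2, with 20. Their Y-linked shares differed in direction. WT replicate 1 was lower in round spermatids, at 0.0285% against 0.0464%. WT replicate 2 was higher there, as the mechanical libraries were, at 0.0989% against 0.0610%. The genes of the rule were left out of these sums, but the barcodes were chosen on transcripts of the same libraries, so no test is given.

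The next question was whether the mutants changed the share and the sex-linked output of round spermatids. Shares were taken after every barcode with at least 500 UMIs had been thinned to 500, since a shallow barcode reaches the marker limits less often. At that depth the minimum of 3 marker UMIs amounts to a share of 0.6%, above the 0.3% of the rule. In the 9 mechanical WT libraries the share was 3.08% ± 1.25 (SD), from 1.78% to 5.37%. In Cul4a it was 2.75% and 3.31%, inside the WT range. In CNP it was 7.74% and 11.9%, above all WT libraries. The means of CNP and WT were 6.75 percentage points apart. An exact permutation of the library labels (two-sided) gave p = 0.0364, the minimum for 2 libraries set against 9, and 0.0727 after Benjamini-Hochberg adjustment over the 6 tests of this family. For Cul4a the difference was −0.0444 percentage points (p = 0.982, exact permutation test), and its sign turned when WT replicate 10 (0.242), WT replicate 4 (0.143), WT replicate 7 (0.000302) or Cul4a replicate 1 (0.238) was left out. With barcodes of at least 1000 UMIs thinned to 1000, the difference was −5.07 percentage points for Cul4a (p = 0.109, exact permutation test) and 7.55 for CNP (p = 0.0364, exact permutation test).

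Without thinning, 3.67% to 13.0% of WT, 6.04% and 7.74% of Cul4a and 17.7% and 19.5% of CNP barcodes were round spermatids. The UMI minimum removed 3651 of 4381 CNP barcodes (83.3%), 8851 of 25423 mechanical WT barcodes (34.8%) and 13 of 5736 Cul4a barcodes (0.227%). The part of that loss in the shares was not tested.

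The X-linked share of UMIs in round spermatids was 1.74% and 1.76% in Cul4a and 1.40% and 1.49% in CNP, against 1.57% ± 0.0640 (SD, n = 9) in WT. Both Cul4a libraries lay above and both CNP libraries below every mechanical WT library, which did not hold for the enzymatic ones. The differences, 0.178 and −0.123 percentage points, each had p = 0.0364 by exact permutation, again the minimum, and 0.0727 after adjustment. With enzymatic WT replicate 2 added (WT replicate 1 was under the minimum of 10 round spermatids), p was 0.0606 for Cul4a and 0.0303 for CNP (exact permutation test). The other barcodes of the same libraries were at 1.20% and 1.28% in Cul4a and 0.963% and 0.622% in CNP. The Y-linked share was 0.0391% ± 0.00206 in Cul4a and 0.0283% ± 0.00121 in CNP (SD, n = 2) against 0.0371% ± 0.00796 in WT, with p = 0.655 and p = 0.145 in the exact permutation test. Without WT replicate 9 the CNP difference was −0.0102 percentage points with p = 0.0444 (exact permutation test).

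**Figure D2:**
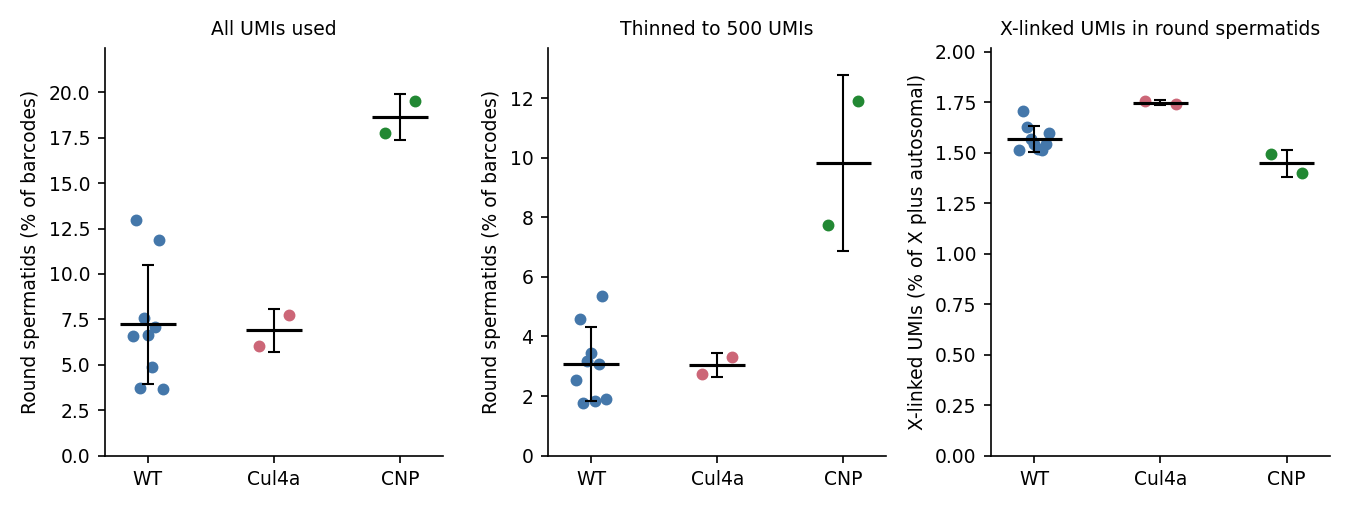
Share of barcodes that were round spermatids (%, all UMIs on the left and after thinning to 500 UMIs in the middle) and X-linked share of UMIs in round spermatids (%, right), by group. Each point is a library, bars give the mean and whiskers the SD; after thinning, the CNP libraries lie at 7.74% and 11.9%, above the WT maximum of 5.37%, and X-linked shares are 1.74% and 1.76% in Cul4a against at most 1.70% in mechanical WT.

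Loss of Cul4a, a cullin scaffold of CRL4 ubiquitin ligases, was compared with WT in round spermatid counts summed per library. Of 9803 genes tested with edgeR's quasi-likelihood test, 1186 passed an adjusted p of 0.05, which is 12.1% of all genes, 758 higher (7.73%) and 428 lower (4.37%). The number fell to 309 without Cul4a replicate 1 and 342 without Cul4a replicate 2, DESeq2 called 552, and edgeR 439 with a marker share of at least 0.6% and 125 with each round spermatid thinned to 500 UMIs. In round spermatids, 11.1% of all genes tested had both Cul4a libraries outside the WT range, 6.29% above and 4.85% below it. Many of the calls extended to the rest of the testis: leaving out genes of the rule, 437 of 755 higher genes (57.9%, against 12.8% of all genes tested) and 254 of 427 lower genes (59.5%, against 12.3%) had both Cul4a libraries on that side of the WT range in the other barcodes of the same libraries. In the round spermatids themselves 483 and 247 of these genes did. The rule itself used Tex29, 1700001P01Rik and Tnp1, which were among the higher genes, and Rfx8, among the lower, and nothing is read from these. Cul4a transcript was at 11.2 CPM in both Cul4a libraries and at 0 to 26.1 CPM in WT (median 9.02), a 3′ tag count that does not check the deletion.

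Among the genes that rose, processed pseudogenes stood first. Rps13-ps1, a processed pseudogene of a small ribosomal subunit gene at chr8:87047689-87048226 (plus strand, GRCm38), was at 212 and 238 CPM in Cul4a and at 0 in all 9 WT libraries. That makes it at least 186-fold higher, taking 3 counts over the WT group as the floor, with an adjusted p of 4.2e-37. Its parent gene Rps13 was at 164 and 179 CPM against 194 to 652 CPM in WT and did not pass (log2 difference −0.59 ± 0.27 SE, adjusted p = 0.181). Hist1h2al, a histone gene that GENCODE lists as a processed pseudogene, was at 115 and 136 CPM against 0 to 5.57 CPM (median 0), a log2 difference of 6.43 ± 0.40 with adjusted p = 6.24e-28. A gene was tested from 20 counts summed over the fit, so it could enter through a single group. Rps13-ps1 did, with 212 and 340 counts in Cul4a and 0 in every WT and CNP library. So did Hist1h2al, with 121 and 184 counts in Cul4a and at most 2 in any WT or CNP library. With edgeR's own filter instead, higher calls over all genes were 495 rather than 758, and lower calls 385 rather than 428. The part of entry by Cul4a counts in the pseudogene count was not tested. Of 165 processed pseudogenes tested, 73 rose and 5 fell (47.3% called, median log2 difference 1.33). Of 8032 protein-coding genes, 499 rose and 362 fell (10.7%, median −0.0061). Reads of a pseudogene and its parent can be assigned to either, so these levels are uncertain, and the B6;129 background of the Cul4a mice cannot be told apart from the genotype here.

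Protein-coding genes that rose were led by Bloc1s6, a subunit of a complex that forms lysosome-related organelles. It was at 88.6 and 93.0 CPM in Cul4a and at 0 to 9.02 CPM in WT (median 0; log2 difference 5.36 ± 0.40, adjusted p = 3.62e-22). The ranges were far apart. Map4k1, a kinase upstream of JNK, was at 288 and 335 CPM against 71.7 to 172 CPM (median 89.6), 3.27-fold higher (1.85 ± 0.17, adjusted p = 6.14e-16). Gar1, a protein of the snoRNPs that guide pseudouridylation, was at 60.5 and 79.6 CPM against 0 to 12.3 CPM (3.61 ± 0.35), and Tagln2, an actin-binding protein, at 42.6 and 50.5 CPM against 0 to 7.02 CPM (4.69 ± 0.48). No WT library reached a Cul4a library for these genes, which was a condition for naming them. Bloc1s6, Gar1 and Tagln2 met the minimum of 20 summed counts only through Cul4a. Their presence in the test thus depended on the group where they were high. The remaining genes named by the rule on the smallest adjusted p were Gm1821, Dynlt1-ps1, Gm15485 and Gm9843, all pseudogenes or antisense transcripts. Of these, Gm15485 met the minimum only through Cul4a. The call of Dynlt1-ps1 was lost when enzymatic WT replicate 2, at 369 CPM, was added (adjusted p = 0.112, edgeR).

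Among the genes that fell, Map2k7 and Grtp1 had the smallest adjusted p. Map2k7, which activates JNK, was at 4.48 and 7.48 CPM in Cul4a and at 72.0 to 137 CPM in WT (median 120), 19.3-fold lower, with a log2 difference of −4.07 ± 0.31 and adjusted p = 6.54e-21. In the other barcodes it was at 42.4 and 45.5 CPM against 70.3 to 122 CPM, so the gap there was 2.06-fold. Grtp1, a TBC-domain protein of the kind that acts on Rab GTPases, was at 0 and 0.624 CPM against 36.9 to 101 CPM (median 72.5; −6.68 ± 0.52, adjusted p = 7.61e-21), and in the other barcodes at 0.796 and 0.983 CPM against 158 to 235 CPM. Grtp1 (chr8:13172022-13200620, minus strand) lies 24.1 kb from Cul4a (chr8:13105621-13147940, plus strand). Of the 3 genes tested within 50 kb of Cul4a it alone passed, while Pcid2 (−0.61 ± 0.53) and Lamp1 (0.14 ± 0.16) did not. Of 1 gene between 50 and 250 kb none passed with edgeR, with DESeq2 or at an unadjusted p under 0.05. Of 12 between 250 and 1000 kb 1 fell with edgeR and 1 with DESeq2. Of 54 between 1000 and 10000 kb 9 rose and 5 fell with edgeR, Map2k7 (chr8:4238740-4247897, plus strand) among the latter. DESeq2 called 3 higher and 4 lower there. Over all genes 12.1% passed with edgeR, 7.73% higher and 4.37% lower. The windows were set after these genes had been seen.

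Dapp1, an adaptor that binds phosphoinositides, was at 0 and 0.624 CPM against 19.5 to 58.6 CPM (−5.56 ± 0.64, adjusted p = 1.92e-11). Wwtr1, the transcriptional coactivator TAZ of the Hippo pathway, was at 13.1 and 14.6 CPM against 24.6 to 83.7 CPM (median 65.2; −2.21 ± 0.29, adjusted p = 2.83e-09). WT replicate 3 supplied the low end of the WT range. Wdr16, a protein of motile cilia, was at 28.7 and 30.3 CPM against 73.8 to 104 CPM (−1.58 ± 0.24, adjusted p = 1.76e-07). The noncoding RNA 4933405E24Rik was at 0 in both Cul4a libraries, at least 13.9-fold lower than in WT. The others named were 4930408O17Rik, 1700019B03Rik, Ammecr1l and Cntnap5b, 4.09-fold to 8.97-fold lower. With each round spermatid thinned to 500 UMIs the calls of Dapp1, Wwtr1, Wdr16, 4930408O17Rik, Ammecr1l and Cntnap5b were lost, and that of Wdr16 also with a marker share of at least 0.6%.

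**Figure D3:**
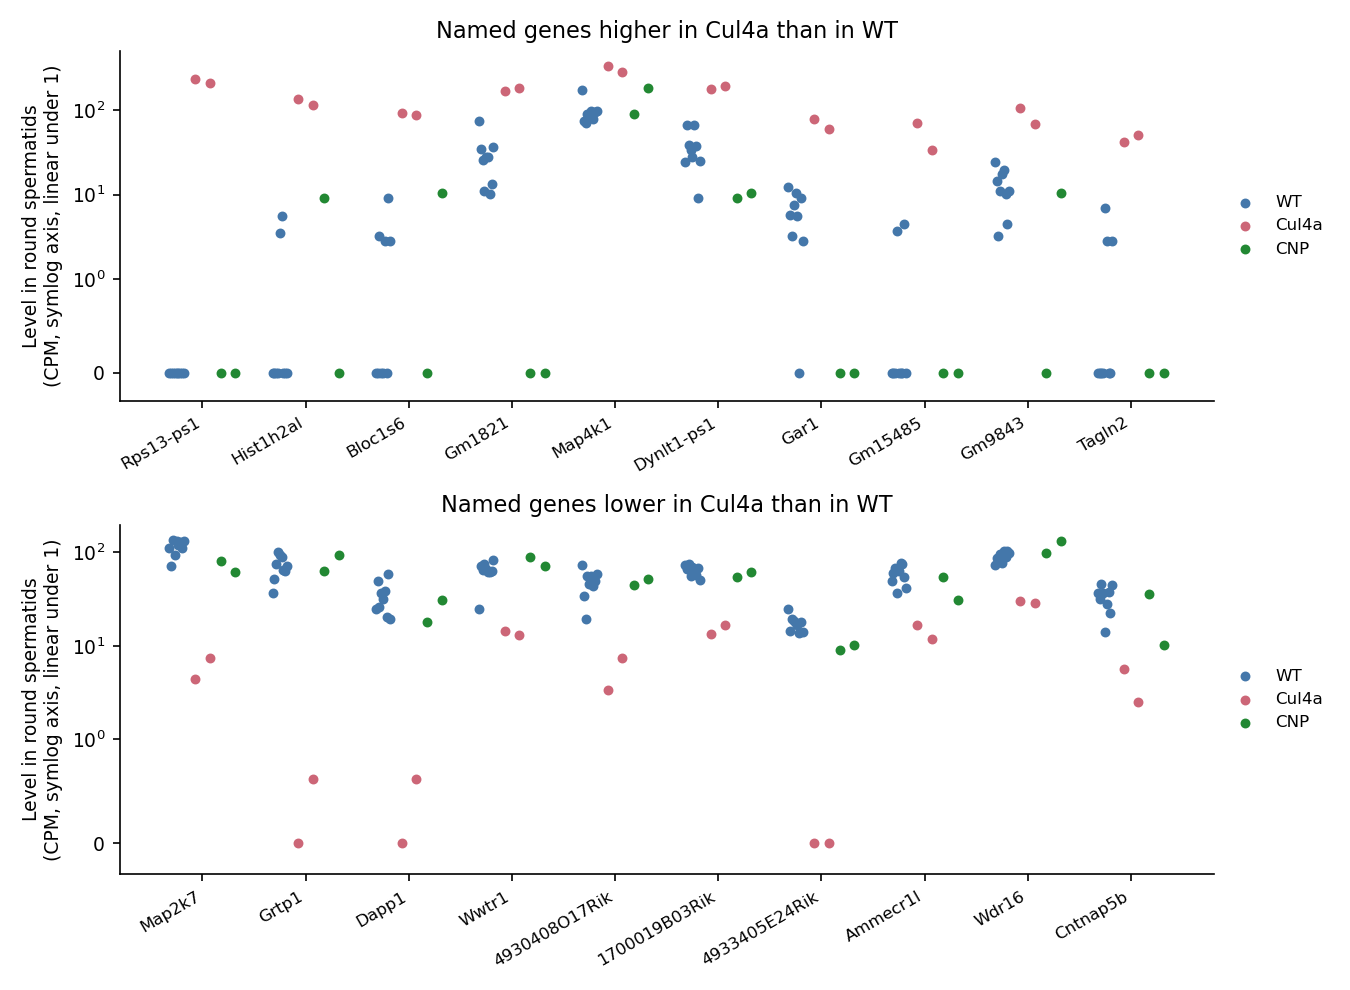
Level in round spermatids (CPM, symmetric log axis that is linear under 1) of the 10 genes higher (top) and 10 lower (bottom) in Cul4a than in WT with the smallest adjusted p; each point is a library of mechanical WT, Cul4a or CNP. For every gene both Cul4a points lie outside all WT points, which was a condition for naming it. Map2k7, for example, is at 4.48 and 7.48 CPM against 72.0 to 137 CPM.

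Among 13 genes tested that shape the spermatid nucleus, 4 fell and 2 rose in Cul4a (46.2% called against 12.1% of all genes, and median log2 difference −0.24, against 0.034 over all genes). Hook1, a microtubule linker of the manchette, was at 448 and 523 CPM against 599 to 907 CPM (median 861; −0.67 ± 0.15, adjusted p = 0.000538). Tssk6, a testis kinase needed for nuclear shaping, was at 142 and 154 CPM against 189 to 401 CPM (median 270; −0.82 ± 0.19, adjusted p = 0.00145). The ranges did not overlap for either gene. Psme4, the proteasome activator that helps degrade acetylated histones, was at 518 and 536 CPM against 676 to 1006 CPM (−0.62 ± 0.15, adjusted p = 0.00152), and Cdyl, a chromodomain protein, at 294 and 295 CPM against 372 to 538 CPM (−0.56 ± 0.15, adjusted p = 0.00783). The 2 that rose were Hist1h2al and Hils1, the latter at 2154 and 2244 CPM against 1518 to 2385 CPM (0.38 ± 0.12, adjusted p = 0.0285), whose ranges overlapped. Hist1h2al met the minimum of 20 summed counts only through Cul4a. It is also on the study's own Cul4a list, drawn from these samples, so its call is not independent evidence. Without Cul4a replicate 1 the calls of Hook1, Tssk6, Psme4, Cdyl and Hils1 were lost, and without Cul4a replicate 2 those of all of these but Hook1; Hils1 was also lost without WT replicate 9.

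Of 13 X- and Y-linked spermatid genes tested, 3 passed, all higher (23.1%, where 7.73% of all genes were higher, median −0.041). Cypt3 and Cypt1, members of a cysteine-rich perinuclear theca family, were at 500 and 559 CPM against 208 to 314 CPM (median 273; 1.05 ± 0.15, adjusted p = 2.97e-08) and at 639 and 658 CPM against 307 to 463 CPM (median 381; 0.82 ± 0.14, adjusted p = 4.96e-06). Neither overlapped with WT, and both stayed past the threshold under all alternatives. Slx, a multicopy X-linked gene, was at 7.48 and 19.1 CPM against 0 to 4.51 CPM (2.26 ± 0.61, adjusted p = 0.00608), a call lost without Cul4a replicate 1 and uncertain because its copies share reads. Slx met the minimum of 20 summed counts only through Cul4a, yet counts toward the 23.1%.

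Genes of the later sperm cell were split. Of 15 late spermatid genes 4 rose and 1 fell (33.3% called, median −0.024), and of 18 genes of germ cell energy metabolism 4 rose and 1 fell (27.8%, median 0.048), against 12.1% of all genes and with Gapdhs in both lists. Oaz3, the testis antizyme, was at 1664 and 1739 CPM against 922 to 1672 CPM (median 1188; 0.58 ± 0.13, adjusted p = 0.000596), with the lower Cul4a library inside the WT range. Pgam2, a glycolytic mutase, was at 1523 and 1609 CPM against 916 to 1277 CPM (median 1092; 0.58 ± 0.13, adjusted p = 0.000464), above all WT libraries. Odf1 (0.76 ± 0.20), Cox7b2 and Cox8c, testis subunits of cytochrome oxidase (0.56 ± 0.15 and 0.71 ± 0.18), Gapdhs (0.40 ± 0.13) and Hils1 also rose, while Spata18, a mitochondrial quality protein, fell from 194 to 354 CPM in WT to 134 and 168 CPM (−0.71 ± 0.18, adjusted p = 0.00327), as did the hexokinase Hk1 (−0.46 ± 0.15). Protamine and transition protein UMIs, which the rule capped, summed to 4344 and 4660 CPM in Cul4a and 2776 to 5360 CPM in WT round spermatids, and their part in these differences was not tested. Leaving out Cul4a replicate 1 ended the calls of Odf1, Cox7b2, Cox8c, Gapdhs, Hils1, Spata18 and Hk1, leaving out Cul4a replicate 2 those of Oaz3, Pgam2, Odf1, Gapdhs, Hils1 and Hk1, and single WT libraries those of Cox8c (WT replicate 3), Gapdhs (8), Hils1 (9) and Hk1 (5, 6, 7, 9 or 10).

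In the acrosome list 5 of 24 genes rose and 1 fell (25% called against 12.1% of all genes, median 0.0082). Spaca3, a lysozyme-like sperm protein, was at 1061 and 1132 CPM against 775 to 1266 CPM (0.40 ± 0.13, adjusted p = 0.0324), and Lyzl1, of the same family, at 852 and 1012 CPM against 622 to 842 CPM (0.41 ± 0.14, adjusted p = 0.0351). Spaca4 (0.46 ± 0.14) and Spata9 (0.45 ± 0.15) rose by similar amounts, and Tmem95, a sperm membrane protein needed for fusion with the egg, was at 15.3 ± 0.512 CPM (SD, n = 2) against 0 to 5.76 CPM (2.59 ± 0.57, adjusted p = 0.000593). Zp3r, which binds the zona pellucida, fell (−0.48 ± 0.16, adjusted p = 0.0384), and among 16 acrosome biogenesis genes Spink2, a protease inhibitor, rose (0.38 ± 0.13, adjusted p = 0.0403). Apart from Tmem95, these calls were lost when either Cul4a library was left out. Tmem95 itself met the minimum of 20 summed counts only through Cul4a. DESeq2 called 1 gene of the acrosome list, which was higher, and none of the acrosome biogenesis list. Zp3r was also lost without WT replicate 4, 6, 7, 8, 9, 10 or 11 or CNP replicate 2, Spink2 without WT replicate 5, 9 or 11, Spaca3 without 8 or 9, Spaca4 and Lyzl1 without 9 and Spata9 without 8 or 11.

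In 4 further lists 5.26% to 15.8% of genes were called, around the 12.1% of all genes. DESeq2 called 1 higher flagellum gene, 1 lower transcription regulator, 1 higher and 1 lower gene of RNA storage, and no CRL4 gene. Of 24 flagellum genes 2 rose (median 0.059): the tektin Tekt4, at 660 and 844 CPM against 504 to 649 CPM (0.44 ± 0.14, adjusted p = 0.0178; lost without Cul4a replicate 2), and Meig1, at 5404 and 6196 CPM against 2626 to 5151 CPM (0.57 ± 0.16, adjusted p = 0.0241), which was lost without WT replicate 3 or 9 or any of the 4 mutant libraries. Among 19 transcription regulators Atf1 rose (0.54 ± 0.19), and Taf7l (−0.70 ± 0.22) and Spz1 fell, Spz1 from 1516 to 1681 CPM in WT to 1033 and 1176 CPM (−0.47 ± 0.13, adjusted p = 0.00838). These 3 were lost without either Cul4a library, Atf1 also without WT replicate 6, 7, 8, 9 or 11 and Taf7l without WT replicate 7 or 10. Of 20 genes of RNA storage Dazl rose (1.10 ± 0.28, adjusted p = 0.00321; lost without Cul4a replicate 2) and Rnf17 fell (−0.44 ± 0.16, adjusted p = 0.0497; lost without any of WT replicates 4 to 11, either Cul4a library or CNP replicate 2), and of 19 CRL4 subunits and receptors Dcaf8 alone fell (−0.68 ± 0.22, adjusted p = 0.0243; lost without WT replicate 7 or either Cul4a library). All 6 genes of the study's Cul4a list passed, 5 higher and 1 lower, but that list was drawn from these samples and is not independent evidence; of 11 genes of a spermatid list of unknown function 1 apart from the rule gene Tex29 rose, Smco4, and it was lost without WT replicate 11 or either Cul4a library, with DESeq2 and with enzymatic WT replicate 2 added.

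Other RNAs differed between Cul4a and WT round spermatids at the same time. Of 8 Sertoli markers tested 3 rose (37.5%, against 7.73% of all genes): Tmsb4x, a thymosin, at 140 and 143 CPM against 12.3 to 86.4 CPM (1.27 ± 0.20, adjusted p = 6.79e-07), Defb36 and Cst12. The Leydig enzyme gene Cyp17a1 rose as well (1.49 ± 0.49, adjusted p = 0.0315), a call lost without either Cul4a library or WT replicate 8, 9, 10 or 11. Cyp17a1, Defb36 and Cst12 met the minimum of 20 summed counts only through Cul4a, as did the uncalled Sertoli markers Ldhb and Gstm6. The share of 37.5% thus depends in part on that filter and is given as a description. None of the 3 spermatogonial, 5 early meiotic, 11 pachytene, 2 macrophage and 2 red blood cell genes tested passed with edgeR, and DESeq2 called none of them; at an unadjusted p under 0.05 there was 1 higher spermatogonial, 1 lower early meiotic, 2 higher pachytene and 1 higher macrophage gene. Malat1, a nuclear noncoding RNA, fell from 221 to 786 CPM to 146 and 215 CPM (−1.53 ± 0.29, adjusted p = 0.00369; lost without Cul4a replicate 1). Of 78 ribosomal protein genes 23 passed, all higher (29.5%, where 7.73% of all genes were higher, median 0.59). The part of these RNAs in the differences of other genes was not tested.

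The CNP transgene was compared with WT in the same fit. Of 9803 genes, 65 passed (0.663%), 3 higher (0.0306%) and 62 lower (0.632%). The number was 16 without CNP replicate 2, 21 without CNP replicate 1 and 94 without WT replicate 3. DESeq2 called 69, of which 7 were higher: the same 3 and Ctdnep1, March11, Gstm5 and Dpp10. Both CNP libraries lay outside the WT range for 9.62% of all genes tested, above it for 3.9% and below it for 5.72%. In the other barcodes, all 3 higher genes (against 11.4% of all genes tested) and 57 of 61 lower genes (93.4%, the rule gene Prm2 left out, against 11.1%) had both CNP libraries outside the WT range there too.

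All 3 higher genes of the edgeR fit lay within 50 kb of Cnp itself (chr11:100574904-100591729, plus strand, GRCm38). Nkiras2, a Ras-like protein that holds back NF-kappa-B (chr11:100619244-100627607, plus strand), was at 262 and 196 CPM in CNP and at 49.2 to 94.5 CPM in WT (median 77.2), 3.17-fold higher, with a log2 difference of 1.55 ± 0.29 and adjusted p = 0.000254. Dnajc7, an Hsp70 cochaperone (chr11:100582818-100620168, minus strand), whose gene overlaps Cnp and the start of Nkiras2, was at 235 and 206 CPM against 64.1 to 137 CPM (median 82.1), 2.39-fold higher (1.16 ± 0.29, adjusted p = 0.0248). Ttc25, a docking protein for dynein arms of cilia (chr11:100545607-100572568, plus strand), which ends 2.34 kb before Cnp, was at 634 and 681 CPM against 246 to 516 CPM (median 332), 1.92-fold higher (0.91 ± 0.19, adjusted p = 0.00163). In none of them did the CNP and WT ranges overlap. WT replicate 3 gave the WT maximum of Ttc25. The other barcodes gave the same order, with Nkiras2 at 419 and 450 CPM against 104 to 147 CPM, Dnajc7 at 390 and 552 against 172 to 243 CPM and Ttc25 at 653 and 715 against 240 to 301 CPM. All 3 calls were lost without CNP replicate 1 and with each round spermatid thinned to 500 UMIs, and those of Dnajc7 and Ttc25 also without CNP replicate 2 and with a marker share of at least 0.6%. Dnajc7 was further lost with the rule applied after thinning and with barcodes of at least 1000 UMIs, and its log2 difference went down to 0.51.

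The RefSeq promoters (GRCm38.p6) of Nkiras2, on the plus strand at chr11:100622705-100623004, and of Dnajc7, on the minus strand at chr11:100619578-100619877, are shown because these genes moved together and run in opposite directions, with capitals as for Tex36:
Nkiras2: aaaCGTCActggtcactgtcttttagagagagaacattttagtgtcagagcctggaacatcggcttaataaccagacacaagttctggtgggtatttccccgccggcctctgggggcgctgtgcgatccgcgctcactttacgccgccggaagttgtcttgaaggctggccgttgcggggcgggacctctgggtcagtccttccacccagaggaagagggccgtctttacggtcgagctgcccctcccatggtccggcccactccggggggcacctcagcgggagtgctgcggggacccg
Dnajc7: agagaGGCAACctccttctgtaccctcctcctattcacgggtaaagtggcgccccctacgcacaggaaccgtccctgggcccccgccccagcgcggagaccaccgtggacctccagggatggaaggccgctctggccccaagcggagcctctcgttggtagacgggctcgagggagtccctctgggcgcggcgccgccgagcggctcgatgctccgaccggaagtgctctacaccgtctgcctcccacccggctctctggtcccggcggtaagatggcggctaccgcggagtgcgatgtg
Nkiras2 held 1 match to the cAMP core and none to the RFX core, and Dnajc7 the reverse. RefSeq lists a second start for Dnajc7, at chr11:100613303-100613602. Both windows lie beyond the end of Cnp.

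Of 4 genes tested within 50 kb of Cnp 3 rose, where over all genes 0.0306% rose and 0.632% fell. The fourth, Acly, was at 9.05 and 10.3 CPM against 0 to 10.5 CPM and did not pass (1.02 ± 1.24). Between 50 and 250 kb, 0 of 10 genes passed with edgeR, with DESeq2 or at an unadjusted p under 0.05. Of 18 genes between 250 and 1000 kb edgeR called 1, which fell, and of 149 genes between 1000 and 10000 kb it called 2, which fell too; at an unadjusted p under 0.05, 1 and 7 genes of these windows were higher, and DESeq2 called no higher gene in them. These windows were drawn after the genes had been seen. Cnp transcript was at 0 in both CNP libraries of round spermatids and at 0 to 3.73 CPM in WT, which is under the limit this depth allows (3 counts, 14.5 CPM over the CNP group). In the other barcodes it was at 8.54 and 11.3 CPM against 0 to 4.95 CPM. The sources used here give no ends for the BAC, and whether it carries these neighbours was not tested.

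**Figure D4:**
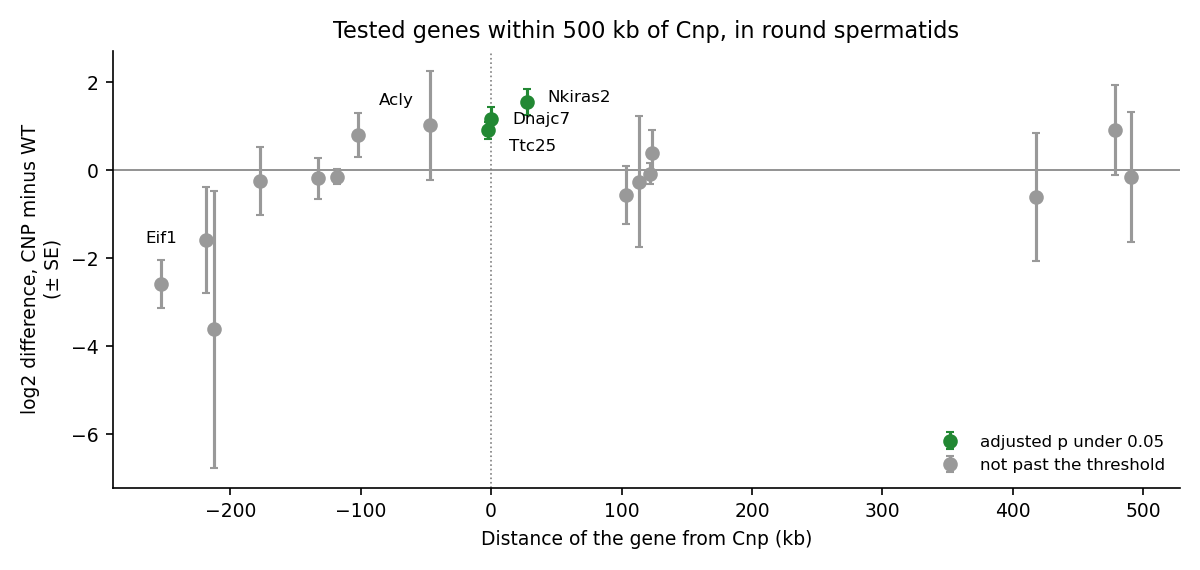
Log2 difference of CNP minus WT in round spermatids (± SE) for the tested genes within 500 kb of Cnp, against their distance from Cnp (kb; negative towards the start of the chromosome, 0 for an overlap). Green points passed an adjusted p of 0.05: Ttc25 at 0.91, Dnajc7 at 1.16 and Nkiras2 at 1.55; grey points did not pass.

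Among the 62 lower genes, 22 encoded ribosomal proteins. Of 78 ribosomal protein genes 22 passed, all lower, where 0.632% of all genes were (median −2.25, or −2.02 with genes at 0 in CNP set to their bound, against −0.14 over all genes), 48 had both CNP libraries below all mechanical WT libraries, as did 5.72% of all genes, and 23 were at 0 in both. Rps7, of the small subunit, was at 0 and 10.3 CPM against 242 to 566 CPM (median 311; −6.04 ± 0.61, adjusted p = 2.15e-13). The large subunit genes Rpl7, Rpl7a, Rpl23a and Rpl17 were at 0 in both CNP libraries, at least 7.93-fold, 8.20-fold, 7.95-fold and 6.42-fold lower, with 3 counts over the CNP group as the floor. Naca, which binds nascent chains on the ribosome, was at 54.3 and 114 CPM against 388 to 664 CPM (median 437; −2.53 ± 0.30, adjusted p = 1.65e-10). Every mechanical WT library was above both CNP libraries for each of these genes. With enzymatic WT replicate 2 added, which was at 0 for Rpl17 too, the call of this gene was lost (adjusted p = 0.177, edgeR).

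The smallest adjusted p belonged to Hsp90aa1, the inducible form of the chaperone Hsp90. It was at 272 and 186 CPM in CNP and at 1064 to 1807 CPM in WT (median 1183), 5.50-fold lower (−2.50 ± 0.21, adjusted p = 1.87e-17). Impdh2, which makes guanine nucleotides, was at 18.1 and 0 CPM against 171 to 295 CPM (median 252; −4.70 ± 0.54, adjusted p = 9.3e-11). For both genes every WT library was above both CNP libraries. Tpt1, the translationally controlled tumour protein, was at 0 and 20.6 CPM against 184 to 455 CPM (median 276; −4.83 ± 0.59, adjusted p = 1.59e-08), and Pabpc1, the second most abundant transcript of WT round spermatids, at 2590 and 2806 CPM against 4143 to 5542 CPM (median 5024), 1.86-fold lower (−0.97 ± 0.13, adjusted p = 9.17e-08). The calls of Hsp90aa1, Rps7, Impdh2, Naca, Tpt1 and Pabpc1 held under every alternative run for them, each left-out library included.

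Some of these genes belong to a list that the study assigned to a batch component. It proposes the sequencing platform, MiSeq rather than HiSeq, as the source. WT replicate 3 was the only MiSeq library of the fit. Summed over the list, its round spermatids stood at 6454 CPM and those of the CNP libraries at 163 and 175 CPM. Of 11 genes that the study assigned to a batch component, all 11 were below WT in both CNP libraries and 6 fell (Rps7, Rpl11, Rps13, Rps12, Tpt1 and Kpna2, median −4.83, or −4.03 with zeros at their bound), of which Rpl11, Rps13, Rps12 and Kpna2 were lost without either CNP library, and Rps12 also without WT replicate 8 or 10 or Cul4a replicate 2; the list was drawn from these samples and is not independent evidence. Summed ribosomal protein transcripts were at 5512 and 7120 CPM in CNP round spermatids, 18930 and 20717 CPM in Cul4a and 9762 to 29642 CPM in mechanical WT, where WT replicate 3 gave the maximum and no other library exceeded 14975 CPM. In the other barcodes of the CNP libraries Rps7, Hsp90aa1 and Rpl7 were below all WT libraries as well, as the plot of 8 genes shows. The part of the batch in these differences was not tested.

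**Figure D5:**
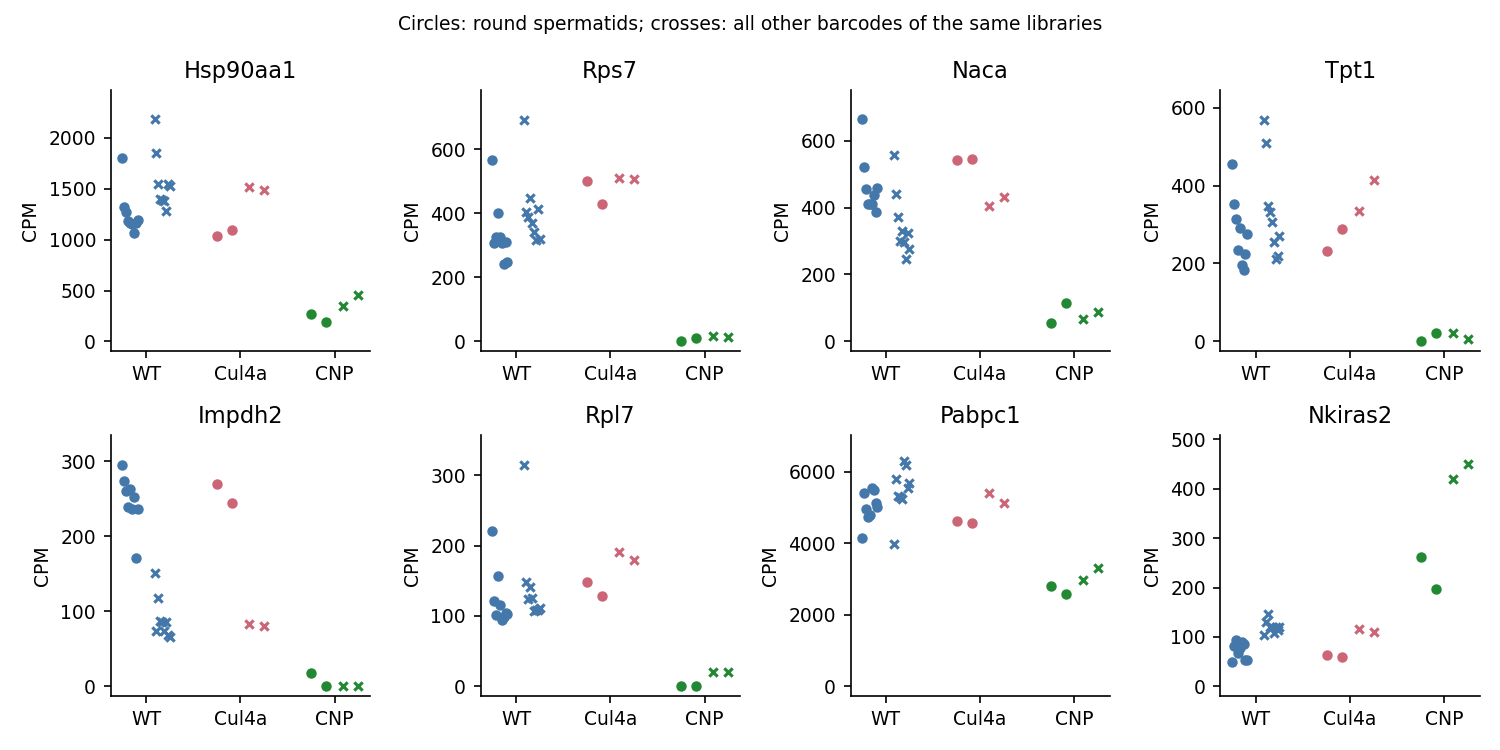
Level (CPM) of 8 genes in round spermatids (circles) and in all other barcodes of the same libraries (crosses), by group; each point is a library. CNP libraries lie below all WT libraries for the first 7 genes, as in Hsp90aa1 with 186 and 272 CPM against at least 1064 CPM, and above them for Nkiras2.

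The spermatid lists held few calls in CNP, as did all genes (0.663%), so nothing particular to them is read from this. Besides Pabpc1 in the RNA storage list, none of the 215 entries tested over the other 19 lists (a gene in several lists is counted in each) passed with edgeR, acrosome, flagellum, chromatin, late spermatid, energy metabolism and X- and Y-linked genes among them. At an unadjusted p under 0.05, 5 were higher and 8 lower, and DESeq2 called none. The medians were 0.038 for 24 acrosome genes, −0.045 for 24 flagellum genes, −0.080 for 13 chromatin genes, −0.10 for 15 late spermatid genes, 0.044 for 18 energy genes and −0.44 for 13 X- and Y-linked genes. With 207409 UMIs over both CNP libraries, a gene of 14.5 CPM gave about 3 counts. The size of difference that could be called at this depth is not given here, so a missing call of a low gene is not read as an equal level.

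Cul4a and CNP round spermatids were also compared directly. Of 9803 genes 206 passed (2.10%), 168 higher in Cul4a (1.71%) and 38 lower (0.388%). The 2 groups did not overlap for 50.7% of all genes, with Cul4a above for 30% and below for 20.7%, so nothing is read from that. Most leading genes were those already seen against WT, a reference both contrasts share. Rps7 (log2 difference 6.62 ± 0.59, adjusted p = 8.08e-16), Hsp90aa1 (2.34 ± 0.23), Naca (2.85 ± 0.31), Impdh2 (4.82 ± 0.56) and Rps13-ps1 (9.53 ± 1.11) were higher in Cul4a. Grtp1 (−6.66 ± 0.81, adjusted p = 6.7e-10), Ttc25 (−1.32 ± 0.22), Map2k7 (−3.32 ± 0.58), Nkiras2 (−1.78 ± 0.32) and Wwtr1 (−2.43 ± 0.51) were lower. The levels behind 3 of these show which group moved: Map2k7 was at 61.9 and 81.5 CPM in CNP, near the WT range of 72.0 to 137 CPM, Grtp1 at 63.4 and 92.9 CPM in CNP within the WT range of 36.9 to 101 CPM, and Hsp90aa1 at 1040 and 1096 CPM in Cul4a against 1064 to 1807 CPM in WT. The number called was 35 without CNP replicate 1, 72 without CNP replicate 2, 107 without Cul4a replicate 1 and 120 without Cul4a replicate 2, and the calls of Map2k7, Nkiras2 and Wwtr1 were lost without CNP replicate 1.

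Dissociation was the last contrast. WT replicate 1 held 6 round spermatids, under the minimum of 10, so 1 enzymatic library (WT replicate 2, 20 round spermatids) stood against the 9 mechanical ones and is assumed to vary as they did. Of 7822 genes 55 passed (0.703%), 48 higher (0.614%) and 7 lower (0.0895%). The enzymatic library lay outside the mechanical range for 34% of all genes, above it for 17.6% and below it for 16.4%. The pseudogene Dynlt1-ps1 was at 369 CPM against 9.02 to 66.9 CPM (3.23 ± 0.39, adjusted p = 1.03e-05), and Dynlt1b, a dynein light chain gene of the same family, at 198 CPM against 0 to 30.7 CPM (3.59 ± 0.49, adjusted p = 1.47e-05). The sequences of this family are alike, so their reads may be shared. Gm12346, Gm3531 and RP24-228I22.1 rose by 3.10 to 3.84 on the log2 scale. Lower in the enzymatic library were Rad21, a cohesin subunit, at 28.4 CPM against 109 to 189 CPM (−2.32 ± 0.56, adjusted p = 0.0317), Samd4, an RNA-binding repressor of translation, at 482 CPM against 731 to 1070 CPM (−0.92 ± 0.22, adjusted p = 0.0319), 1700086L19Rik, 4930589P08Rik, and Rpl17, at 0 CPM against 66.9 to 209 CPM. DESeq2 did not call Rad21, Rpl17 or 4930589P08Rik. With 1 library in this arm, the animal, its batch and the dissociation cannot be told apart.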

How the data were processed

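Testis cells were profiled by Drop-seq. The authors aligned the reads with STAR 2.5.3a to GRCm38 (mm10) and deposited 1 table of raw, not normalized UMI counts (genes by barcodes) for each library. The libraries in the fits hold 775386 to 9745302 UMIs.

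Round spermatids were selected by the stated rule, their counts were summed per library (at least 10 cells), and the library was the replicate. Mechanical WT, Cul4a and CNP entered 1 fit of edgeR 4.0.16 (TMM, at least 20 counts per gene, quasi-likelihood test, Benjamini-Hochberg threshold 0.05, R 4.3.3). SE is the absolute log2 difference over the root of F. DESeq2 1.42.0, other filters and scalings, stricter rules and each library left out were the alternatives. Shares were compared by two-sided exact permutation tests over libraries. The fits were tested on simulated counts. Levels are CPM, comparable between genes because 1 UMI marks 1 transcript end. Coordinates are GENCODE vM21 (19557 of 20403 names matched, 98.3% of UMIs); motif matches are exact.

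Named genes were, per mutant and direction, the 10 with the smallest adjusted p among those without overlap with WT, 5 in the other contrasts, the 15 of highest level or ratio, and called list members. Members and lists were chosen with earlier results of these data known. Mlh3 libraries served only to check markers, and sorted libraries were not compared.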

Additional observations from a re-analysis of the deposited data

Results flagged for a closer look

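Among the 9 mechanical WT libraries, 12 of 37 values tested had 1 library far from the others, where chance alone flags about 1 in 20. WT replicate 3, the MiSeq library, was the far one for 9 of them: high for Gm1821 (73.8 CPM), Map4k1 (172), Ttc25 (516), Hsp90aa1 (1807), Rps7 (566), Naca (664), Rpl7 (221) and Rpl17 (209), and low for Wwtr1 (24.6). WT replicate 10 was high for Bloc1s6 (9.02 CPM) and low for Impdh2 (171), and WT replicate 7 was high for Tagln2 (7.02).

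The direct test of Cul4a against CNP separated the strains for many named genes (edgeR, adjusted p under 0.05, log2 difference of Cul4a minus CNP). For the genes that rose in Cul4a it was 9.53 for Rps13-ps1, 4.73 for Hist1h2al, 4.27 for Bloc1s6, 9.18 for Gm1821, 1.32 for Map4k1, 4.38 for Dynlt1-ps1, 7.83 for Gar1, 7.39 for Gm15485, 4.18 for Gm9843 and 7.28 for Tagln2. For those that fell in Cul4a it was −3.32 for Map2k7, −6.66 for Grtp1, −4.99 for Dapp1, −2.43 for Wwtr1, −2.83 for 4930408O17Rik and −1.84 for Wdr16. For the neighbours of Cnp it was −1.78 for Nkiras2, −1.32 for Ttc25 and −1.47 for Dnajc7, and for genes lower in CNP it was 2.34 for Hsp90aa1, 6.62 for Rps7, 4.82 for Impdh2, 2.85 for Naca, 4.84 for Tpt1, 0.90 for Pabpc1, 8.82 for Rpl7, 8.69 for Rpl7a, 8.94 for Rpl23a and 8.51 for Rpl17. Where a gene was at 0 in CNP, the fitted difference depends on the prior count and is no bound.

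Sex-linked shares of round spermatids lay above the WT mean in both Cul4a and below it in both CNP libraries. The gap between the mutants was 0.301 percentage points for X-linked and 0.0109 for Y-linked UMIs, and the difference between them was not tested.

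The rule was also applied to the sorted libraries, which enter no comparison. Its shares there bear on the name round spermatids, which was not tested against the sort. It was met by 3 of 34 barcodes sorted as primary spermatocytes (8.82%, 95% exact binomial interval 1.86% to 23.7%), 19 of 65 sorted as secondary spermatocytes (29.2%, 18.6% to 41.8%) and 7 of 100 sorted as spermatids (7.00%, 2.86% to 13.9%), of which 75 were protamine-positive. It was met by 0 of 292 spermatogonia, which allows up to 1.03%.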

How the results depend on the processing

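The number of genes called depended on depth and on single libraries. For Cul4a against WT it was 1186 as reported, 552 with DESeq2, 710 when the rule was applied after thinning, 439 with a marker share of at least 0.6%, 125 with each round spermatid thinned to 500 UMIs, and 309 to 1430 with 1 library left out; without a filter on low counts 82.9% of calls were higher, against 63.9% as reported, with thinned round spermatids 84.8% and without Cul4a replicate 1 78.6%. For CNP against WT it was 65 as reported, 38 with the size factors of DESeq2, 39 with the filter of edgeR, 35 with enzymatic WT replicate 2 added, 29 with thinned round spermatids and 16 to 94 with 1 library left out. For Cul4a against CNP it was 206 as reported, 79 with thinned round spermatids and 35 to 275 with 1 library left out, and for the enzymatic library 55 as reported and 166 without a filter. The share of higher calls for Cul4a against WT went down to 56.3% with DESeq2 and 56.25% with the filter of edgeR. Thinning left 500 UMIs of each round spermatid. Equal replicate numbers do not pair the Cul4a and CNP libraries (correlation of deviations −0.209 over 3031 genes): the replicate block gave 254 calls and the crossed block 374, added after seeing the data as were the thinned round spermatids and the removal of shifted barcodes. No paired analysis was possible against WT because only number 2 is shared by libraries with enough round spermatids.

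The share difference of Cul4a turned to 0.106 with all 11 WT libraries, was −0.333 without thinning and −5.07 with 1000 UMIs per barcode, and ran from −0.327 to 0.242 with 1 library left out, that of CNP was 11.4 without thinning and ran from 4.67 to 8.83. The X-linked difference of Cul4a was 0.178 with the rule after thinning, 0.160 with WT replicate 2 added and 0.169 to 0.195 with 1 left out, that of CNP −0.159 and −0.170 to −0.0755; with 1 mutant library left the exact test cannot go below 0.2. The Y-linked difference of Cul4a turned to −0.00414 with WT replicate 2 added and ran from 0.000575 to 0.00382, that of CNP from −0.0102 to −0.00705. Smco4 turned to −0.073 in Cul4a with a marker share of at least 0.6%. Of 62 genes named for Cul4a, 29 stayed past the threshold with each library left out and 25 under the other alternatives; of 64 for CNP, 11 and 12; of 10 for Cul4a against CNP, 7 and 6. The enzymatic arm has 1 library, so leaving it out or thinning the rule was not run.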
